A study of Mus musculus with 7 samples.

Results

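The endocrine lineage transcription factors followed here are Neurog3, Neurod1, Insm1, Isl1, Pax4, Pax6, Nkx2-2, Rfx6 and Foxa2, which are 9 of the 20887 genes named on the array. They were taken by name, and the rule that lists them uses no measured value, though the list was chosen with earlier results of these data known. All 9 had at least 1 probe, with 13 probes in all, and 8 passed the filter on dim probes. Pax6 did not pass it on either of its 2 probes and was not tested.

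Epithelial cells were detached with EDTA from the proximal intestine of male mice, and their total RNA was hybridised to Agilent arrays of 1 colour. Every mouse was homozygous for floxed alleles of both Mob1a and Mob1b (written f/f), came from a line backcrossed to C57BL/6J over more than 6 generations, and received tamoxifen at 80 mg/kg per day on 2 days from an age of 8 weeks. The knockout mice also carried Villin-creERT2, a tamoxifen-dependent Cre recombinase under the Villin promoter, which is active across the intestinal epithelium, and were taken 4 days (2 arrays), 7 days (2 arrays) or 10 days (1 array) after tamoxifen. The control group (2 arrays) carried the floxed alleles with no Cre named, so that loss of Mob1a and Mob1b and the activity of the recombinase cannot be told apart. The labels put the controls at 7 days after tamoxifen, while the design text speaks of day 0, and the design text counts 2 different mice per time without mention of day 10. Mob1a and Mob1b encode adaptor proteins of the Hippo pathway, which activate the LATS kinases that restrain YAP and TAZ.

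Enteroendocrine cells are the scattered hormone-secreting cells of the gut epithelium. They arise from crypt progenitors of the secretory lineage in which Notch signalling is low and in which the basic helix-loop-helix factor Neurog3 is switched on for a short time. Neurog3 starts a cascade in which Neurod1, Insm1, Pax4, Pax6, Isl1, Nkx2-2 and Rfx6 take part, and these genes carry differentiation and the choice between hormone types forward after Neurog3 itself has been switched off. Foxa2, a forkhead factor that opens chromatin in endoderm, is used more widely in the gut epithelium and also acts in the endocrine lineage.

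Since Neurog3 and Neurod1 bind E-boxes, and the Notch effector Hes1 binds N-boxes, the 250 bases before the transcription start were searched for 4 motifs on both strands: E-boxes (CANNTG), the E-box form bound by Neurog3 and Neurod1 (CAGATG, itself an E-box), N-boxes (CACNAG) and the TEAD motif of the YAP partners (GGAATG). RefSeq entries of GRCm38.p6 were matched for 7 of the 9 genes, and Insm1 and Pax4 are named only. The 5 genes with a single listed start are shown 5′ to 3′ on their own strand, with E-boxes in capitals, because these are the windows in which the cascade's own factors could be looked for. They lie at chr10:62132840-62133089 on the plus strand for Neurog3, chr2:79456637-79456886 on the minus strand for Neurod1, chr13:116309689-116309938 on the minus strand for Isl1, chr2:147186403-147186652 on the minus strand for Nkx2-2 and chr10:51685268-51685517 on the plus strand for Rfx6.
Neurog3: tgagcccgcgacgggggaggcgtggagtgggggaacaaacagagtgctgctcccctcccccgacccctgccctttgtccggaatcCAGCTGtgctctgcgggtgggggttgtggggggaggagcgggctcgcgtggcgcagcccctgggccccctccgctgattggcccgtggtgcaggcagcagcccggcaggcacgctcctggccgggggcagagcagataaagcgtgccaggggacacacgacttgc
Neurod1: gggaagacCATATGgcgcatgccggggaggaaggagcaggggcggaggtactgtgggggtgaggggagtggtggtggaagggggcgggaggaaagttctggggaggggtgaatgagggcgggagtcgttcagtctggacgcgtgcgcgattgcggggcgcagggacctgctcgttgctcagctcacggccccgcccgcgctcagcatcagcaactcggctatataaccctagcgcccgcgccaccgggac
Isl1: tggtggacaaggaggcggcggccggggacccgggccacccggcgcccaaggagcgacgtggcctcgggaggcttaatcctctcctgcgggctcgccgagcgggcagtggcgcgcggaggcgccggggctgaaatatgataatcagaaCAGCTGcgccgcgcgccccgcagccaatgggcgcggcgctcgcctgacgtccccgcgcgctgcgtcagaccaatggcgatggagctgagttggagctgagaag
Nkx2-2: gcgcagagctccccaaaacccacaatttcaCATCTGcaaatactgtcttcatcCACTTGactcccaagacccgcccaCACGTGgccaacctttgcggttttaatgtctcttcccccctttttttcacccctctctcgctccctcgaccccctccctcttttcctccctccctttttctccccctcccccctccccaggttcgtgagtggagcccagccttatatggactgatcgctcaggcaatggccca
Rfx6: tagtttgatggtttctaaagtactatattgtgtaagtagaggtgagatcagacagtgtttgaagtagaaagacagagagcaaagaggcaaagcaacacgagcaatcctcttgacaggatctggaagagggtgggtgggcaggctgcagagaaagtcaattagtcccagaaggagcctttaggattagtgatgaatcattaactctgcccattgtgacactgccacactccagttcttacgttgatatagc
Neurog3 held 1 E-box, CAGCTG, at position -165 from the start. Isl1 held the same letters at -103, and Neurod1 held CATATG at -242. Nkx2-2 held 3 E-boxes, CATCTG at -220, CACTTG at -197 and CACGTG at -173, of which the first is CAGATG read on the other strand. Rfx6 held no E-box and 1 N-box, CACGAG, at -155. The TEAD motif was in none of these 5 windows. Among 32851 promoters of the same length, 66.2% held an E-box, 14.4% the CAGATG form, 36.7% an N-box and 12.6% the TEAD motif, so an E-box in such a window is common.

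The scaled level used below is log2 of the background-subtracted spot signal minus the 75th percentile of the array and a difference is between 2 such levels. That percentile was 545 signal units on the day 10 array and 315 to 395 elsewhere, and 45.2% to 51.3% of the probes were well above background. The 2 arrays of a group correlated over features at 0.985 (control), 0.988 (day 4) and 0.977 (day 7). Mob1b differed from control by -1.43 ± 0.22 (SE) at day 4, -1.59 ± 0.22 at day 7 and -1.64 ± 0.27 at day 10, with limma adjusted p of 0.191, 0.0136 and 0.00702. The 1 probe of Mob1a was dim and went the other way at day 10, by 1.60 ± 0.30 (limma adjusted p = 0.0112). Whether either gene's probe lies in the deleted part is not given in the sources used here, so they check the labels only in part. Row 1 of the slide held control and day 4, and row 2 held day 7 and day 10, so slide row and time cannot be told apart in any comparison that crosses the rows. All 3 comparisons with control share the same 2 control arrays.

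Neurog3, Foxa2, Insm1 and Neurod1 were called lower than control at day 7. On the day 10 array 7 of the 8 tested factors were called lower, while Foxa2 stood at 67.6% of its control level. The day 7 calls of Insm1 and Neurod1 and the day 10 calls of Nkx2-2 and Rfx6 were lost under some alternatives given below. At day 4 none of the 8 tested factors was called lower or higher, against a background of 0% of all 24763 features called lower and 0.0323% called higher, and 1 factor (Neurog3) had an unadjusted limma p under 0.05, against 1543 of all features. At day 7, 4 factors were called lower (Neurog3, Foxa2, Insm1 and Neurod1) and none higher, where 4.50% of all features were called lower and 2.96% higher. At day 10, 7 were called lower, all but Foxa2, where 17.6% of all features were called lower and 10.5% higher, so that the background had grown as well. The median difference of the 8 was -0.49 at day 4, -1.68 at day 7 and -3.79 at day 10, beside -0.08, -0.08 and -0.15 over all features. Neurod1, Isl1, Pax4 and Rfx6 were not well above background on the day 10 array, so that median is not a measured size. With normexp background correction the medians of the 8 were -0.32, -0.54 and -1.37. With median, detected-probe and quantile scaling the day 10 median was -3.97, -3.56 and -3.57. A call is a limma adjusted p under 0.05 (Benjamini-Hochberg, 2-sided, over all features). Because Neurod1 passed the filter through control and day 4 arrays alone, and others mainly through those groups, these counts describe the genes and do not stand as support. In RNA from a mixed population, fewer endocrine cells and less RNA per endocrine cell cannot be told apart.

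**Figure D1:**
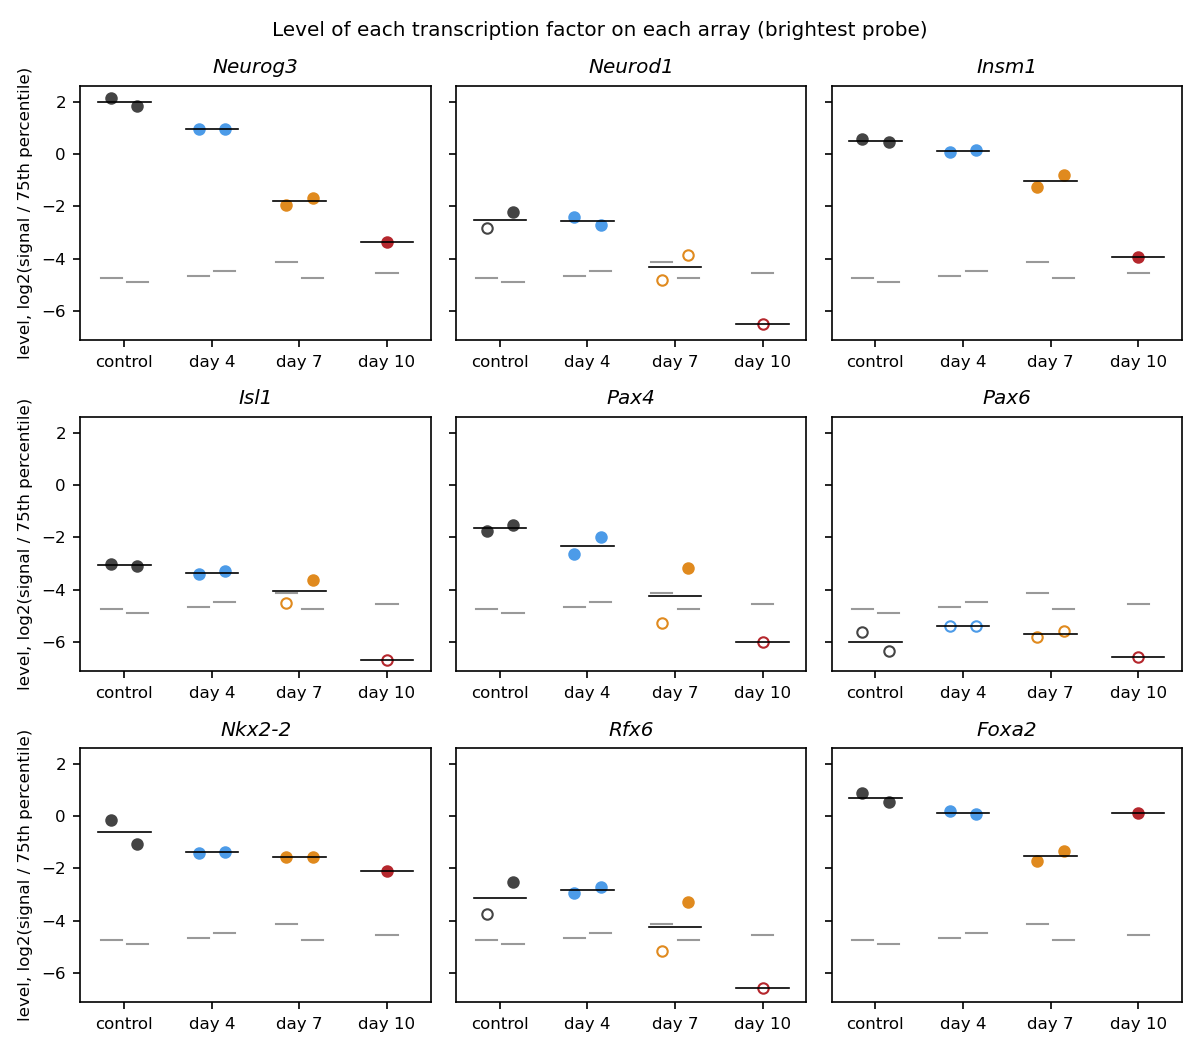
Level of each of the 9 factors on each array (y axis, log2 of signal over the array's 75th percentile) by group (x axis). Filled points are well above background and open points are not, black bars are group means, and grey ticks mark the lowest level well above background on that array; Neurog3 steps down from 2.15 to -3.34, and Foxa2 falls to between -1.73 and -1.36 at day 7 and stands at 0.13 at day 10.

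Neurog3, the factor that commits progenitors to the endocrine fate, had the largest fitted difference of the 8 at day 7 and at day 10. Neurod1 at day 7, and Neurod1, Isl1, Pax4 and Rfx6 at day 10, were not well above background. Their fitted differences are not measured sizes, so the ranking does not show which factor fell most. The processed signal of Neurog3 was 1397.5 and 1302.4 units on the control arrays, 769.4 and 705 at day 4, 87.2 and 111.4 at day 7 and 53.8 at day 10. As scaled levels these were 2.15 and 1.82 in the controls, 0.96 and 0.96 at day 4, -1.93 and -1.69 at day 7 and -3.34 at day 10. The 4 groups did not overlap, every array was well above background, and the order ran from control through day 4 and day 7 to day 10. At day 4 the difference from control was -1.02 ± 0.23 (SE) with a limma adjusted p of 0.406, so this first step did not pass the test. At day 7 it fell by 3.80 ± 0.23, or 13.9-fold (limma adjusted p = 0.00166), and it ranked 79 from the lowest among the 24763 features. At day 10 it fell by 5.33 ± 0.28, or 40.1-fold, to 2.49% of the control level (limma adjusted p = 0.000243). Both of these calls held under every alternative run for them, while the size varied. The difference ran from -3.96 to -2.75 at day 7 and from -5.50 to -3.75 at day 10.

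The further steps of Neurog3 were tested against each other. From day 4 to day 7 the level fell by 2.78 ± 0.23, or 6.85-fold (limma adjusted p = 0.00775), a call that was lost when either day 4 array was left out (adjusted p = 0.0756 without replicate 1 and 0.0902 without replicate 2, the difference staying at -2.78). From day 7 to day 10 it fell by 1.53 ± 0.28, or 2.89-fold (limma adjusted p = 0.0159), and this call held under every alternative run for it. Control and day 4 were thus the only neighbours in that order whose difference did not pass the test.

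Insm1, a zinc-finger factor induced downstream of Neurog3 that is needed for endocrine differentiation, fell at day 7 and again by day 10. Its levels were 0.55 and 0.47 in the controls, 0.08 and 0.13 at day 4, -1.26 and -0.81 at day 7 and -3.94 at day 10. Again no groups overlapped and all arrays were well above background. The day 4 difference was -0.40 ± 0.24 (limma adjusted p = 0.907). At day 7 Insm1 fell by 1.54 ± 0.24, or 2.92-fold (limma adjusted p = 0.0178), and at day 10 by 4.45 ± 0.29, or 21.9-fold (limma adjusted p = 0.000370). The step from day 7 to day 10, a fall of 2.91 ± 0.29 or 7.51-fold, passed the test (limma adjusted p = 0.00210), and the step from day 4 to day 7 of -1.14 ± 0.24 did not (limma adjusted p = 0.0718). The day 7 call was lost without control replicate 1 (adjusted p = 0.101), without control replicate 2 (0.0665), without either day 4 array (0.0513), without day 7 replicate 1 (0.0613) and with the groups compared alone (0.0513).

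Neurod1, the helix-loop-helix factor that follows Neurog3 and is needed for secretin and cholecystokinin cells, was dim and was measured by 2 probes. The brighter probe (A_55_P2004972) read -2.82 and -2.21 in the controls, -2.42 and -2.70 at day 4, -4.80 and -3.86 at day 7 and -6.48 at day 10. It was well above background on control replicate 2 and both day 4 arrays only, so the day 7 and day 10 values are not measured sizes. Control and day 4 overlapped, with a difference of -0.04 ± 0.38 (limma adjusted p = 0.999), and day 7 and day 10 lay below both. The fitted difference from control was -1.82 ± 0.38 at day 7 (limma adjusted p = 0.0445) and -3.96 ± 0.47 at day 10 (limma adjusted p = 0.00221). Control replicate 1, at -2.82, was itself not well above background, so no fold is given.

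The day 7 call for Neurod1 rests on few arrays and on the probe. Its adjusted p was 0.0958 without control replicate 1, 0.146 without control replicate 2, 0.0982 without either day 4 array or with the groups compared alone, 0.138 without day 7 replicate 1, 0.0618 with scaling to detected probes and 0.106 when dim probes were kept. With normexp background correction the difference was -0.30 (limma adjusted p = 0.564). The other probe (A_52_P408391) read -2.68 and -2.98 in the controls, -3.47 and -2.94 at day 4, -3.40 and -4.50 at day 7 and -6.53 at day 10, so that its day 7 arrays overlapped with day 4. In a fit with every probe as its own feature, chosen after seeing the data, that probe differed by -1.13 ± 0.41 at day 7 (limma adjusted p = 0.171) and by -3.70 ± 0.50 at day 10 (limma adjusted p = 0.00341). Both probes passed the test at day 10, and their day 7 differences were not tested against each other.

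**Figure D2:**
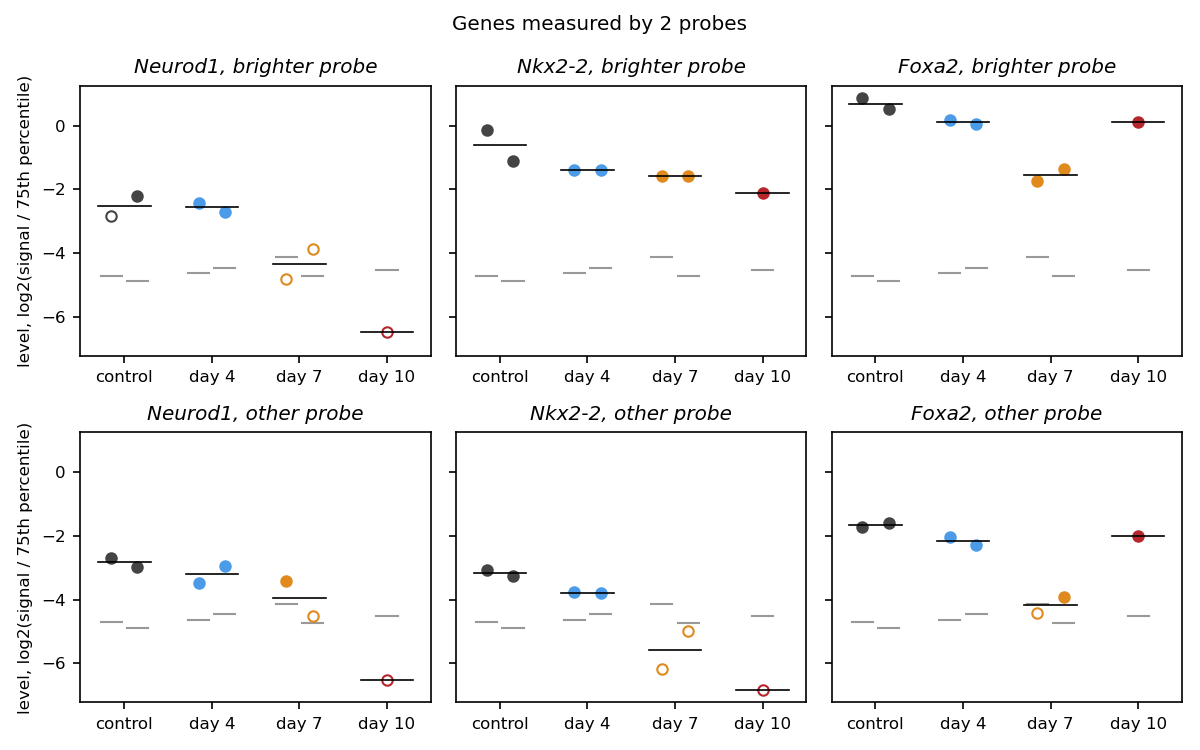
Levels of the 3 tested factors that have 2 probes, the brighter probe in the upper row and the other probe in the lower row (y axis, log2 of signal over the array's 75th percentile; x axis, group; filled points well above background, black bars group means, grey ticks the lowest level well above background on that array). Both probes of Foxa2 are lowest at day 7. The other probe of Nkx2-2 is not well above background at day 7 or day 10, and levels of different probes are not comparable.

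Pax4, a paired-homeodomain factor that acts early in endocrine subtype choice, varied most between day 7 arrays. It read -1.76 and -1.51 in the controls, -2.64 and -2.002 at day 4, -5.28 (not well above background) and -3.18 at day 7 and -5.98 (not well above background) at day 10. No groups overlapped as scaled levels, but day 7 replicate 1 and the day 10 array each read 8.6 signal units before scaling. The 2 day 7 arrays lay further apart than the controls did from day 4. The day 4 difference was -0.69 ± 0.66 (limma adjusted p = 0.941). At day 7 the difference was -2.59 ± 0.66 with a limma adjusted p of 0.0740, which passed the threshold without day 7 replicate 2 (difference -3.64, adjusted p = 0.0128), with scaling to the array median (0.0432) and with the replicate number as a block (0.0350). At day 10 Pax4 was at least 7.43-fold lower than control (fitted difference -4.34 ± 0.81, limma adjusted p = 0.0107).

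Isl1, a LIM-homeodomain factor of hormone-expressing cells, was printed as 10 spots per array, which gives it a within-array check. Its mean levels were -3.01 and -3.10 in the controls, -3.40 and -3.30 at day 4, -4.49 (not well above background) and -3.63 at day 7 and -6.67 (not well above background) at day 10. The SD over spots ran from 0.10 to 0.48. Of the spots used after outliers were left out, 8 of 10 and 10 of 10 were well above background in the controls. The counts were 10 of 10 and 8 of 8 at day 4, 1 of 10 and 8 of 9 at day 7 and 0 of 10 at day 10. The difference from control was -0.30 ± 0.32 at day 4 (limma adjusted p = 0.954) and -1.01 ± 0.32 at day 7 (limma adjusted p = 0.129), the latter passing only without day 7 replicate 2 (difference -1.44, adjusted p = 0.0335). At day 10 Isl1 was at least 2.78-fold lower than control (fitted difference -3.62 ± 0.39, limma adjusted p = 0.00157). From day 7 to day 10 the fitted difference was -2.61 ± 0.39 (limma adjusted p = 0.00762). No fold is given for it, since day 7 replicate 1 was not well above background.

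Nkx2-2, a homeodomain factor that steers enteroendocrine subtypes, had 2 probes matched to different RefSeq transcripts. The brighter probe (A_55_P1985911) read -0.14 and -1.09 in the controls, -1.40 and -1.39 at day 4, -1.56 and -1.58 at day 7 and -2.11 at day 10, well above background throughout. Its differences from control were -0.78 ± 0.33 at day 4 (limma adjusted p = 0.812), -0.96 ± 0.33 at day 7 (limma adjusted p = 0.160) and -1.49 ± 0.41 at day 10 (limma adjusted p = 0.0401). The controls lay apart on this probe, and the day 10 call was lost without control replicate 1 (difference -1.02, adjusted p = 0.0937), without either day 4 array (0.0804), without either day 7 array (0.0594), with scaling to detected probes (0.0669) and when dim probes were kept (0.0747). The other probe (A_55_P1985905) read -3.06 and -3.25 in the controls, -3.78 and -3.80 at day 4, -6.19 and -4.98 at day 7 and -6.85 at day 10, and was not well above background at day 7 or day 10. In the fit with every probe as its own feature, it differed by -2.43 ± 0.40 at day 7 (limma adjusted p = 0.0207) and -3.70 ± 0.49 at day 10 (limma adjusted p = 0.00318). With the mean of both probes the day 7 difference was -1.69 (limma adjusted p = 0.0275). The other probe passed the filter through control and day 4 arrays alone. Its differences, and the mean that includes it, are therefore not measured sizes and do not stand as support.

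Rfx6, a winged-helix factor that acts below Neurog3 in pancreas and gut, was the least precise of the tested genes together with Pax4. It read -3.74 (not well above background) and -2.53 in the controls, -2.94 and -2.71 at day 4, -5.16 (not well above background) and -3.30 at day 7 and -6.56 (not well above background) at day 10. Control overlapped with day 4 and with day 7, and the day 10 array lay below all others. The differences were 0.31 ± 0.67 at day 4 (limma adjusted p = 0.992) and -1.10 ± 0.67 at day 7 (limma adjusted p = 0.387, 95% interval -2.72 to 0.53). At day 10 the fitted difference was -3.43 ± 0.82 (limma adjusted p = 0.0252), with no fold given, since control replicate 1 was not well above background. This call was lost without control replicate 2 (difference -2.82) and without either day 4 array.

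Pax6, a paired-homeodomain factor that activates hormone genes, was too dim on all 7 arrays, with neither probe ever well above background, so only a bound holds for it. The brighter of its probes read between -6.34 and -5.61 in the controls, -5.37 on both day 4 arrays, between -5.81 and -5.58 at day 7 and -6.58 at day 10. In the fit with no filter on dim probes its differences from control were 0.60, 0.28 and -0.60 at days 4, 7 and 10 (limma adjusted p = 0.889, 0.635 and 0.418). No difference was detectable at this signal.

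Foxa2 was the one tested factor called higher from day 7 to day 10. Its brighter probe (A_55_P2134236) read 0.87 and 0.52 in the controls, 0.17 and 0.06 at day 4, -1.73 and -1.36 at day 7 and 0.13 at day 10. All arrays were well above background, day 7 lay below every other array, and the day 10 array fell between the 2 day 4 arrays. The day 4 difference was -0.58 ± 0.25 (limma adjusted p = 0.812). At day 7 Foxa2 fell by 2.24 ± 0.25, or 4.72-fold (limma adjusted p = 0.00699), and from day 7 to day 10 it rose by 1.67 ± 0.31, or 3.19-fold (limma adjusted p = 0.0151). Both calls held under every alternative run for them. The day 10 difference from control was -0.56 ± 0.31 (limma adjusted p = 0.221), with a 95% interval from -1.31 to 0.18.

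The other Foxa2 probe (A_55_P2067533) read -1.72 and -1.60 in the controls, -2.03 and -2.28 at day 4, -4.41 (not well above background) and -3.92 at day 7 and -1.99 at day 10. In the fit with every probe as its own feature it fell by 2.51 ± 0.25 at day 7 (limma adjusted p = 0.00548) and higher by 2.17 ± 0.31 from day 7 to day 10 (limma adjusted p = 0.00681), so the 2 probes had the same course. From day 4 to day 7 the brighter probe fell by 1.66 ± 0.25, or 3.16-fold (limma adjusted p = 0.0328). That call was lost without either control array (adjusted p = 0.0537), without day 4 replicate 1 (0.168), without day 4 replicate 2 (0.204), without day 7 replicate 1 (0.115), when dim probes were kept (0.0857) and with the groups compared alone (0.0537).

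**Figure D3:**
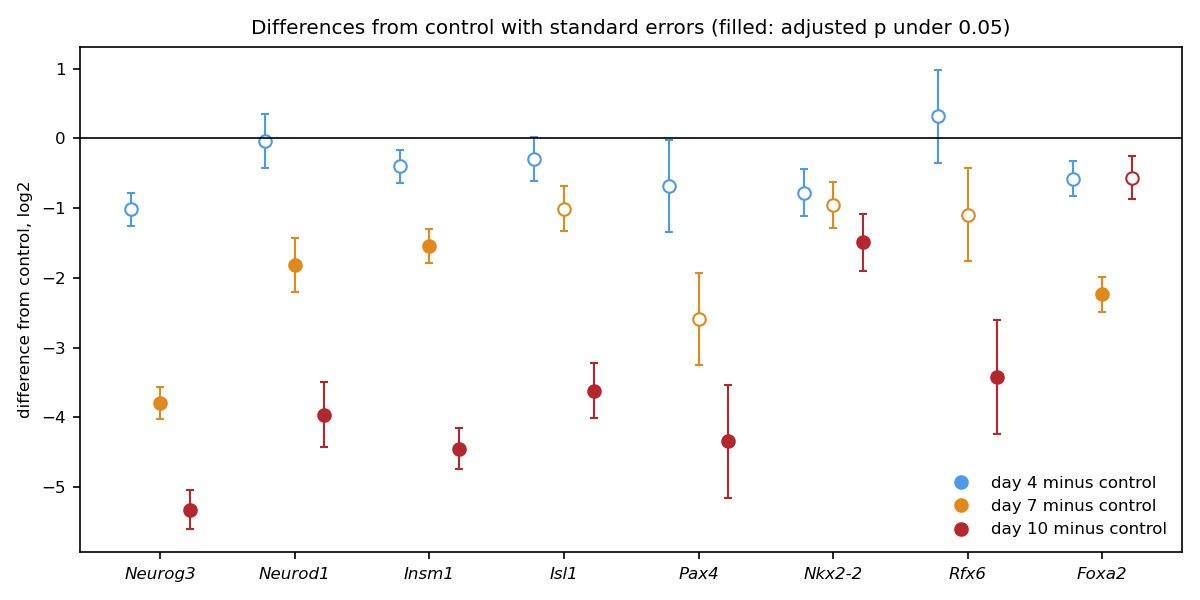
Difference of each of the 8 tested factors from control (y axis, log2) at days 4, 7 and 10, with bars of 1 standard error and filled points where the adjusted p is under 0.05. Neurog3 runs from -1.02 to -5.33, and Foxa2 is the one factor whose day 10 difference (-0.56) is closer to 0 than its day 7 difference (-2.24).

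Between the knockout days, 2 of the 8 factors were called lower at day 7 than at day 4 (Neurog3 and Foxa2), where 1.43% of all features were called lower and 1.24% higher. From day 7 to day 10, 4 were called lower (Insm1, Isl1, Neurod1 and Neurog3), where 10.7% of all features were, and 1 was called higher (Foxa2), where 7.20% were. Neurod1 was not well above background in either of these groups, so its fitted fall of 2.15 ± 0.47 (limma adjusted p = 0.0276) has no fold, and the call was lost without either day 4 array (adjusted p = 0.0615), without day 7 replicate 2 (0.0582) and when dim probes were kept (0.0528). Counting groups without overlap, every knockout array lay below every control array for 6 of 8 factors at day 4, 7 at day 7 and 8 at day 10, where this held for 26.7%, 32.4% and 50.4% of all features. Likewise, 8 of 8 lay lower on both day 7 arrays than on both day 4 arrays (24.4% of all features), and 7 of 8 lower at day 10 than on both day 7 arrays (44.1%). These counts include values not well above background, for Neurod1 at day 7 and day 10. They also include them for Pax4, Isl1 and Rfx6 on day 7 replicate 1 and the day 10 array. Before scaling, Nkx2-2 read 112.8 and 120.1 signal units at day 7 and 126.6 at day 10. The counts thus describe scaled levels and do not stand as support.

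Other factors of the endocrine lineage gave a mixed picture. Of 15 listed, 12 were tested, and none was called at day 4 (2 had an unadjusted limma p under 0.05), 3 were called lower at day 7, and 6 lower and 3 higher at day 10. Their median differences were -0.24, -0.96 and -1.08, beside -0.08, -0.08 and -0.15 over all features. Of all features, 4.50% were called lower and 2.96% higher at day 7, and 17.6% lower and 10.5% higher at day 10. Pdx1, a homeobox factor of the proximal intestine and pancreas, fell by 1.45 ± 0.24 at day 7 (limma adjusted p = 0.0224). Runx1t1, a transcriptional corepressor, was at least 3.06-fold lower at day 7 (limma adjusted p = 0.0354), and Fev, a factor of serotonin-producing cells, fell by 1.33 ± 0.27 (limma adjusted p = 0.0395). Runx1t1 passed the filter through control and day 4 arrays alone. Counts of calls in this list and those below can include such genes and do not stand as support. None of the 3 day 7 calls (Pdx1, Runx1t1 and Fev) remained when control replicate 1, control replicate 2, either day 4 array or day 7 replicate 1 was left out, with 5 to 7 of the 12 then at an unadjusted limma p under 0.05 on the lower side.

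Sox4, an SRY-box factor expressed in early endocrine progenitors, was called higher on the day 10 array. It read 0.33 and 0.05 in the controls, 0.19 and -0.08 at day 4, -0.74 and -0.99 at day 7 and 3.58 at day 10. The day 7 difference of -1.06 ± 0.24 did not pass the test (limma adjusted p = 0.0528), and at day 10 Sox4 was higher by 3.39 ± 0.29, or 10.5-fold (limma adjusted p = 0.000745). Foxa1, the close relative of Foxa2, differed by 0.29 ± 0.25 at day 7 (limma adjusted p = 0.528) and was higher by 2.17 ± 0.30 at day 10 (limma adjusted p = 0.00381). The day 7 differences of Foxa1 and Foxa2 were not tested against each other. From day 7 to day 10, Etv1, an ETS factor, was at least 4.39-fold lower (limma adjusted p = 0.00167), Fev at least 2.14-fold lower (0.0104), Sox4 higher by 4.45 ± 0.29 (0.000848) and Foxa1 higher by 1.87 ± 0.30 (0.00974).

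Of 11 genes of the Notch pathway and secretory commitment, all tested, none was called at day 4 (2 had an unadjusted limma p under 0.05), 3 were called lower at day 7, and 5 lower and 1 higher at day 10. Their median differences were -0.10, -0.85 and -3.14. Over all features, 4.50% were called lower at day 7, and 17.6% lower and 10.5% higher at day 10, so 1 of 11 higher is near the background. Spdef, an ETS factor of goblet and Paneth cell maturation, fell by 3.21 ± 0.33 at day 7 (limma adjusted p = 0.00591), Dll4, a Notch ligand, by 1.78 ± 0.34 (limma adjusted p = 0.0343) and Gfi1, a repressor in secretory progenitors, by 1.09 ± 0.21 (limma adjusted p = 0.0358). With control replicate 1, control replicate 2, either day 4 array or day 7 replicate 1 left out, Spdef was the 1 gene of the list still called lower. Without day 7 replicate 2, Spdef and the Notch1 receptor (named after its values were seen) were called, and Dll4 (adjusted p = 0.0846) and Gfi1 (0.0609) were not. Notch1 read 3.01 and 1.81 in the controls and -3.64 and 2.97 at day 7, so its call rests on day 7 replicate 1, and with all arrays its difference was -2.74 ± 1.999 (limma adjusted p = 0.468). Sox9, a factor of crypt progenitors, differed by -0.85 ± 0.24 at day 7 (limma adjusted p = 0.102). Dll1, the Notch ligand of secretory progenitors, read 1.51 and 1.52 in the controls, 1.16 and 1.67 at day 4, 1.46 and 1.26 at day 7 and -1.62 at day 10, a fall of 3.14 ± 0.31 from control on the day 10 array (limma adjusted p = 0.00117). Notch2, a receptor, was the 1 gene of the list called higher there, by 1.37 ± 0.40 (limma adjusted p = 0.0478), a call that was lost without control replicate 2 (difference 1.05, adjusted p = 0.142), without either day 4 array (0.0599), without either day 7 array (0.0664), with median scaling (0.0775), when dim probes were kept (0.0876) and with the replicate block (0.0501). Atoh1, the factor that opens the secretory lineage above Neurog3, read 0.49 and 1.68 in the controls, 1.19 and 1.45 at day 4, -0.50 and 0.02 at day 7 and -2.39 at day 10, with a difference of -1.33 ± 0.43 at day 7 that did not pass the test (limma adjusted p = 0.134) and a fall of 3.48 ± 0.52 at day 10 that did (limma adjusted p = 0.00499). Hes1, the Notch effector that represses Neurog3, differed by 0.17 ± 0.47, -0.13 ± 0.47 and 0.19 ± 0.58 at days 4, 7 and 10 (limma adjusted p = 0.996, 0.894 and 0.832). Its controls read -2.77 and -1.49 and overlapped with every other group.

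Products of mature endocrine cells were mostly called lower on the day 10 array. Of 20 tested hormones, granins and processing enzymes, none was called at day 4 (1 had an unadjusted limma p under 0.05), 4 were called lower at day 7 and 17 at day 10, with median differences of -0.21, -0.77 and -3.98. The share of all features called lower was 4.50% at day 7 and 17.6% at day 10. The 4 at day 7 were Tac1, the precursor of substance P (-2.08 ± 0.28, limma adjusted p = 0.0123), Tph1, the enzyme of serotonin synthesis (-2.55 ± 0.43, limma adjusted p = 0.0223), and the granins Chga (-1.25 ± 0.25, limma adjusted p = 0.0384) and Chgb (-1.19 ± 0.24, limma adjusted p = 0.0404). The number called at day 7 was 0 without control replicate 1 (7 with an unadjusted limma p under 0.05 on the lower side), 2 without control replicate 2, 1 without either day 4 array or day 7 replicate 1 and 5 without day 7 replicate 2. Neurog3 and these products were not tested against each other.

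**Figure D4:**
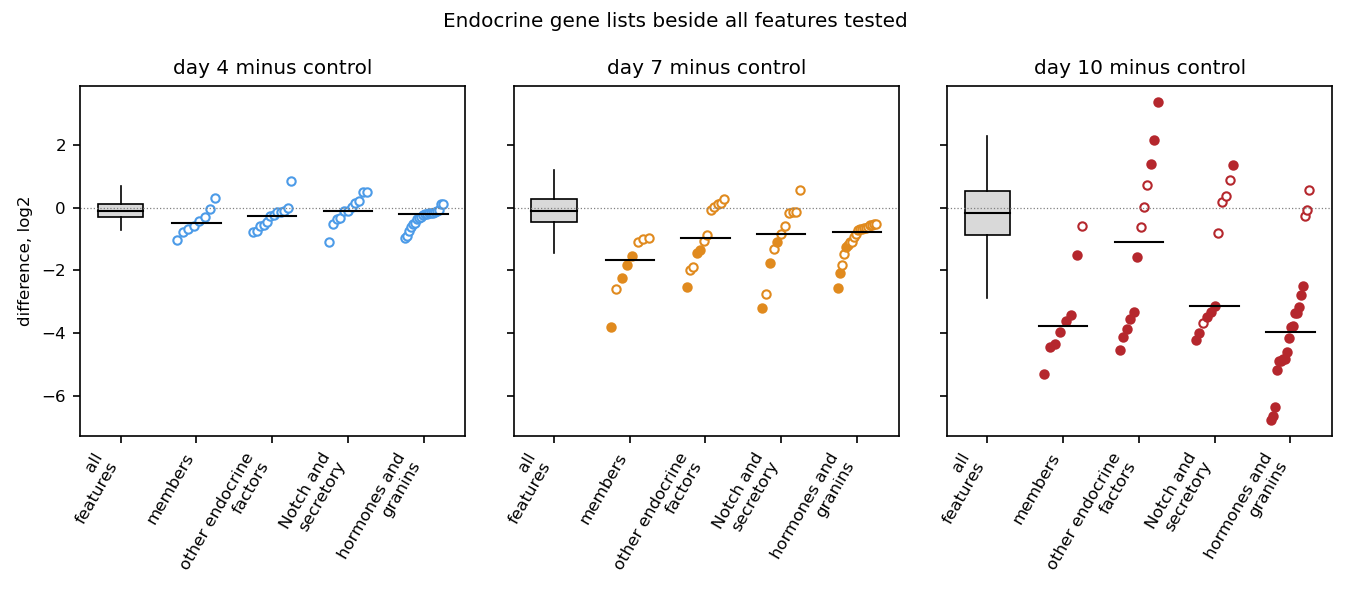
Differences from control (y axis, log2) at days 4, 7 and 10 for the 8 tested factors and 3 lists of related genes, each point 1 gene and filled where the adjusted p is under 0.05, with black bars for list medians. The grey box and whiskers give the quartiles and the 5th to 95th percentiles of all 24763 features, and the hormone list moves from a median of -0.77 at day 7 to -3.98 at day 10.

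Markers of other cell types moved as well, and their part in the results above was not tested. Their counts stand beside 4.50% of all features called lower at day 7, and 17.6% lower and 10.5% higher at day 10. Goblet cell markers had a summed linear level (multiples of the 75th percentile, 10 genes) of 2420 to 2502 in the controls, 2040 to 2435 at day 4, 654 to 1038 at day 7 and 110 at day 10, with 7 of 10 called lower at day 7, among them Klk1 (-5.37 ± 0.29, limma adjusted p = 0.00135) and Agr2 (-3.11 ± 0.21, 0.00221). Enterocyte markers, by which the tissue label was checked, were all well above background in the controls, with 1 of 10 called lower at day 7 and 10 of 10 at day 10. Their sum was 2662 to 2691 in the controls, 1820 to 2216 at day 7 and 314 at day 10. Stem cell markers were called lower for 3 of 7 at day 7, among them Ascl2 (-2.75 ± 0.28, limma adjusted p = 0.00561) and Lgr5 (-1.56 ± 0.29, 0.0303). None of 9 proliferation markers was called or had an unadjusted limma p under 0.05 in any comparison. On the day 10 array the T cell sum (7 genes) was 7.16, against 46.9 to 47.9 in the controls, with 6 of 6 tested called lower. The myeloid sum (6 genes) was 130, against 36.4 to 37.8, with 3 of 5 tested called higher. Both sums include a gene that was not tested. Of the 6 myeloid genes, all were well above background on the day 10 array and 4 in the controls. Pancreatic islet markers, which share Neurog3 descent, were well above background for 5 of 10 genes in the controls and 4 at day 7, and 1 of 5 tested was called lower at day 7 (Slc2a2, a glucose transporter also used in enterocytes, -1.61, limma adjusted p = 0.0275). At day 10 their sum was 6.08, against 69.3 to 77.3 in the controls, with 3 of 5 called lower (Slc2a2 84.6-fold, Iapp at least 15.1-fold and Ucn3 at least 2.25-fold) and 1 higher (Ins2, by 1.47 ± 0.31, limma adjusted p = 0.0165). Most of the control sum was Slc2a2, at scaled levels of 5.87 and 6.11, so the fall of the sum mainly follows this gene. The enteric neuron and glia markers, which could share Isl1 or Insm1 with endocrine cells, had a sum of 0.78 to 0.94 in the controls, 0.69 at day 4, 0.80 to 1.87 at day 7 and 0.81 at day 10, and none of the 5 tested was called at day 7 or day 10 relative to control (2 and 0 with an unadjusted limma p under 0.05). Tubb3, a neuronal tubulin, read 0.18 and -2.33 at day 7 against -4.16 and -3.64 in the controls, a difference of 2.82 ± 0.76 that did not pass the test (limma adjusted p = 0.0881).

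The genes whose levels ran most like each factor over the 7 arrays were listed by Pearson's r among 13804 other named genes, as a description, since the arrays share groups and the day 10 array carries much of the range. For Neurog3 these were Spink4, a peptide of goblet cells (r = 0.998), Lypd6 (0.997) and Tex12 (0.997), and 418 genes had r above 0.95. Spink4 read 7.22 and 7.18 in the controls, 6.38 and 6.39 at day 4, 4.08 and 4.30 at day 7 and 3.24 at day 10, the same order of groups as Neurog3. For Foxa2 they were Sytl4, a vesicle-docking protein of secretory cells (0.993), Stxbp6 (0.986) and Lefty1, an inhibitor of Nodal signalling (0.983), and 44 genes had r above 0.95. Sytl4 read -1.10 and -1.26 in the controls, -1.40 and -1.42 at day 4, -2.41 and -2.25 at day 7 and -1.31 at day 10. For Insm1 they were Fam183b, Defa36 and Mcoln2 (0.999 each), and 975 genes had r above 0.95, so that the course of Insm1 was shared by many genes of the array. They were Zfp637, Ctf1 and Capn9 for Neurod1 (r from 0.992 to 0.995), Bmp1, Ndufa2 and Kctd12 for Pax4 (0.996 to 0.998) and Ap3b2, Dio1 and Fmo1 for Isl1 (0.998 to 0.999). For Nkx2-2 they were Zfp956, Srp54a and Tspan31 (0.985 to 0.991), and for Rfx6 Bpnt1 (0.994) and Etv2 (0.991) are given.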

How the data were processed

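The members, gene lists and tests were chosen with earlier results of these data known. The deposited intensity values come from Agilent Feature Extraction 11.5.1.1, per the file headers, in which the processed signal is the spot's Cy3 signal after background subtraction and not scaled across arrays. Build mm9 is the design's label there, and no probe coordinates are given here. The files used here hold no gene name column, so probes were named through RefSeq accessions and RefSeq's gene list of GRCm38.p6, which named 27509 of 55681 probes.

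Control spots and spots marked as outliers (115 to 274 per array) were left out, replicate spots were averaged as log2 values, and each array's 75th percentile over spots was subtracted. A probe counted as well above background where at least 50% of its spots were. Kept were probes that met this on 2 or more of the 7 arrays, with the brightest probe per gene, leaving 24763 features. No spot was saturated, and precision is limited by the few arrays. limma 3.58.1 in R 4.3.3 (with data.table, version 1.17.8) fitted group means to the 7 arrays together (lmFit, eBayes, 3 residual and 3.16 prior degrees of freedom), and p-values were adjusted by Benjamini-Hochberg over all features. The spread at day 10, with a single array, was taken from the replicated groups. Where no array of a group measured a gene well above background, the fold is written as at least a value. It is taken against the higher of the gene's own level and the dimmest level well above background of any probe on the array. A single probe can need more signal than that, as Neurod1 did on control replicate 1, so these folds are approximate. The fit was tested on simulated data. The alternatives were median, detected-probe and quantile scaling, normexp (offset 50) on median signals, since the files used here hold no mean signal, other filters, the mean of a gene's probes, the deposited series values (linear, equal to the processed signal within 0.1% on all single-spot probes, column medians 15.2 to 30.5), the groups compared alone, a replicate block and each array left out. Named genes were Mob1a, Mob1b, the 9 factors, the 4 genes of each endocrine list with the smallest p at day 7 and every called gene where at most 6 were called, 2 genes of other lists where set beside a result, and the 3 genes most like each factor. Hes1, Notch1 and the genes of the closing section were named for their place in the pathway or after their values were seen. A few genes that this rule would name are not reported here.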

Additional observations from a re-analysis of the deposited data

Results flagged for a closer look

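For 7 differences between knockout days the test of the difference itself passed. From day 4 to day 7, Neurog3 changed by -2.78 ± 0.23 (SE, limma adjusted p = 0.00775) and Foxa2 by -1.66 ± 0.25 (0.0328). From day 7 to the single day 10 array, Neurog3 changed by -1.53 ± 0.28 (limma adjusted p = 0.0159), Insm1 by -2.91 ± 0.29 (0.00210) and Foxa2 by 1.67 ± 0.31 (0.0151). Fitted values that are not measured sizes were -2.61 ± 0.39 for Isl1 (limma adjusted p = 0.00762) and -2.15 ± 0.47 for Neurod1 (0.0276). Isl1 was not well above background on the day 10 array or on day 7 replicate 1. The Neurod1 probe was not well above background on any day 7 or day 10 array and passed the filter through other groups, so that its value shows no measured difference between these days. The day 7 minus day 4 differences span both slide rows, and the day 10 differences rest on 1 array, on which enterocyte, goblet and T cell markers were lower and myeloid markers higher than in the controls.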

How the results depend on the processing

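Of the members' values under the alternatives, 611 kept their direction and side of the threshold, 38 lost the call, 13 gained one and 6 changed sign without a call. Those 6 were Neurod1 at day 4, which read 0.0139 with median scaling, 0.0106 with scaling to detected probes, 0.0230 with quantile normalization, 0.26 without control replicate 2 and 0.10 without day 4 replicate 2 (range over single arrays left out -0.35 to 0.26), and Rfx6 at day 4, which read -0.29 without control replicate 1 (range -0.29 to 0.92). The cause was not tested. Neurog3 and Foxa2 at day 7, Neurog3 at day 10 and both of their changes from day 7 to day 10 kept their calls in all alternatives run for them. Of all features at day 4, 8 were called, all higher; the count was 27 with median scaling (88.9% higher), 4 with detected probes, 17 with normexp (76.5% higher), 2 with no filter, 24 with probes detected on all arrays (83.3% higher) and 3 with the groups compared alone. With no filter, 913 were called at day 7 (main 1847) and 116 from day 4 to day 7 (main 661), including 1 factor of 2. With the groups compared alone these counts were 1067, including 2 factors of 4, and 407, including 1 factor. With probes detected on all arrays, which drops 4 of the 8 factors, 3 were called at day 10 and 3 from day 7 to day 10. Leaving out 1 array gave 1 to 8 features at day 4, 522 to 2071 at day 7, 0 to 1097 from day 4 to day 7 and 4581 to 7484 at day 10, and 2 to 6 factors at day 7, 0 to 5 from day 4 to day 7, 5 to 6 at day 10 and 4 to 7 from day 7 to day 10. The 0 came without day 4 replicate 2, with 2883 features at an unadjusted limma p under 0.05. The groups compared alone leave no replicate at day 10, so that fit was not run there. At day 10 the median over all features was -0.15, and -0.33 with median scaling, 0.08 with detected probes and -0.27 with normexp. The alternatives of every probe as its own feature and of all arrays but day 10 were chosen after seeing the data. Dim probes limit Neurod1, Isl1, Pax4, Rfx6 and Pax6.

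The labels number the replicates but do not say that a number pairs mice, and deviations of same-numbered arrays correlated at 0.01, 0.09 and 0.25, so the numbers were not taken as pairs. With the replicate block 2 features were called at day 4, 1866 at day 7 (5 factors, Pax4 added), 720 from day 4 to day 7 (2 factors), 6484 at day 10 (7) and 3858 from day 7 to day 10 (5).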

Other observations

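On the day 10 array 17 of 20 endocrine products were called lower, where 17.6% of all features were. The incretin Gip fell by 6.78 ± 0.42, or 109.7-fold (limma adjusted p = 0.000320), somatostatin (Sst) by 6.38 ± 0.40, or 83.3-fold (0.000322), and the granin Scg2 at least 50.3-fold (0.000249). The glucagon precursor Gcg fell by 4.90 ± 0.30 (limma adjusted p = 0.000291) and cholecystokinin (Cck) by 4.60 ± 0.31 (0.000374). The prohormone convertases Pcsk1 and Pcsk2 differed by -0.27 ± 0.38 and 0.58 ± 0.43, and the granin-like Vgf by -0.06 ± 0.35, none of which passed the test (limma adjusted p = 0.636, 0.365 and 0.922). These 3 genes are also used outside the gut endocrine lineage, and whether that bears on their values was not tested.

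Among other secretory cells, 4 of 5 tested Paneth cell markers were called lower at day 10 and 2 at day 7, where 17.6% and 4.50% of all features were. Called higher were 2.96% of all features at day 7 and 10.5% at day 10. Of 7 tested tuft cell markers, none was called lower at day 7 (5 had an unadjusted limma p under 0.05) and 1 was called higher (Ptgs1, by 2.16 ± 0.30, limma adjusted p = 0.0139), and 4 were called lower and 1 higher at day 10. Their summed level was 13.8 to 15.6 in the controls, 8.78 to 13.4 at day 7 and 9.13 at day 10.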
